A study of Mus musculus with 3 samples.

Results

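The AP-1 transcription factor genes of the JUN and FOS families were examined in mouse melan-a melanocytes, together with *Atf3* and *Batf3*. The 9 genes were chosen by symbol, and all 9 were found among the 22698 Ensembl genes of the RNA-seq tables. Melan-a is an immortalized melanocyte line from Ink4a-ARF-/- mice on a C57BL/6J background. The cells were grown in RPMI medium with 10% fetal bovine serum, 200 nM 12-O-tetradecanoylphorbol 13-acetate (TPA, a phorbol ester) and 200 pM cholera toxin. These additions are common to all 3 libraries, which are labelled replicates 1, 3 and 4 and were each sequenced on 3 lanes, and there was no group grown without them. The labels call the replicates bioreplicates without saying how they were separated, so the spread between them may be partly technical.

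AP-1 is a dimer of basic leucine zipper (bZIP) proteins. The JUN proteins pair with each other or with a FOS protein, whereas FOS proteins cannot form stable dimers among themselves and need a JUN partner. Phorbol esters are the classical inducers of AP-1, acting through protein kinase C, and the DNA element that AP-1 binds was first known as the TPA response element. Many of these genes are immediate-early genes, which are transcribed within minutes of a stimulus. FOSL1 (FRA-1) and FOSL2 (FRA-2) lack the strong activation domain of FOS and FOSB and usually persist for longer. JUND is generally the most constitutive JUN protein and JUNB the weaker activator. ATF3 is a stress-induced bZIP protein that pairs with JUN proteins, and BATF3 is a small bZIP partner of JUN best known from dendritic cells.

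Promoter sequences show the DNA in front of the 3 JUN genes and of *Fos*, the prototype immediate-early gene of the FOS family. They are the 250 bases before the start of each gene in RefSeq (build GRCm38.p6), 5′ to 3′ on the strand of the gene. Of the 9 genes, 8 were matched in the RefSeq table, and *Fosl1* was not. Capitals mark the letters of 6 motifs searched on both strands, the consensus AP-1 element TGANTCA, the cyclic AMP response element TGACGTCA, the mixed form TGACATCA, the CCAAT box, the TATA box written as TATAAA and the CArG box bound by serum response factor.
Jun, chr4:95052223-95052472, minus strand: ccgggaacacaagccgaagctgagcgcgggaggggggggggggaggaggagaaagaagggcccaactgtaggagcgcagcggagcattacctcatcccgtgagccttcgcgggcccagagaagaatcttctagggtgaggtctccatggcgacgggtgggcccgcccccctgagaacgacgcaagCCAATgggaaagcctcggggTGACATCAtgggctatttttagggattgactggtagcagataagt
Junb, chr8:84978749-84978998, minus strand: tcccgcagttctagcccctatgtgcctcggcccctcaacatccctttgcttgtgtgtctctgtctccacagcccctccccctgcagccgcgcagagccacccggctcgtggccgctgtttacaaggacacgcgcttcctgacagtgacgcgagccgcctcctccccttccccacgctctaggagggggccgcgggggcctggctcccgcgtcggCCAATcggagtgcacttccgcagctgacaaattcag
Jund, chr8:70697489-70697738, plus strand: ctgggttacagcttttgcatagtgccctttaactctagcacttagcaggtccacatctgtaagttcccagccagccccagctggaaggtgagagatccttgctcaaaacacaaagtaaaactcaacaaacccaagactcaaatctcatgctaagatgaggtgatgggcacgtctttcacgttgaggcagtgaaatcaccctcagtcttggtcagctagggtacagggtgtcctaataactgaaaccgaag
Fos, chr12:85473640-85473889, plus strand: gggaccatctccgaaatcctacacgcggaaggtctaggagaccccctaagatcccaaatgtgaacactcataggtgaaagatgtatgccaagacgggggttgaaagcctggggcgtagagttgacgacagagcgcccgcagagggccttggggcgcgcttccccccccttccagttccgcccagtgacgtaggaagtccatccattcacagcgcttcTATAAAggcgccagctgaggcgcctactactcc

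The *Jun* promoter held TGACATCA at bases -45 to -38 (the last base before the start is -1) and CCAAT at -65 to -61. The *Junb* promoter held CCAAT at -36 to -32, and that of *Fos* held TATAAA at -33 to -28. None of the 6 motifs was in the printed stretch of *Jund*. In windows of 300 bases, which reach past the start (base 0), *Junb* also held TATAAA at 0 to 5 and *Atf3* held CCAAT on the other strand at 5 to 9, and *Jund*, *Fosb*, *Fosl2* and *Batf3* held none. Over such windows, TGACATCA was in 3.62% of the 32851 promoters of the RefSeq table, CCAAT in 37.4% and TATAAA in 13.6%. TGANTCA was in 7.81% of them, TGACGTCA in 1.79% and the CArG box in 1.63%, and these 3 were in none of the 8 matched members. A match or its absence describes only the letters in this window, and no other start of the 8 matched genes was searched.

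All values below are FPKM, the reads of a gene divided by the length of its exons and the size of its library, which the authors scaled between libraries by the trimmed mean of M values (TMM). The cells carried melanocyte RNA. All 7 melanocyte markers were above 1 FPKM in every replicate, from 22.1 FPKM for *Mitf* to 3144 FPKM for *Tyrp1* on average. Of the other markers, 0 of 4 for keratinocytes, 1 of 4 for fibroblasts (*Col1a1*, 1.54 FPKM), 0 of 3 for blood cells and 0 of 2 for endothelium reached 1 FPKM in every replicate. *Krt1*, *Ptprc* and *Hbb-b1* were at 0 in all replicates. The remaining blood marker, *Cd68*, was at 1.2, 0.76 and 1.6 FPKM in replicates 1, 3 and 4. The values of short genes came nearest to whole reads at scaled library sizes of 53.8 in replicate 1, 47 in replicate 3 and 66.2 in replicate 4. These are in units of 1000000 reads, and they are estimates of the scaled size, not sequencing depths.

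*Fosl1* had the highest mean of the 9 genes, followed by the 3 JUN genes, and in the deposited values these 4 lay above the rest without overlap. With the coding length of each gene, *Junb* (25.8 to 46.9 FPKM) and *Fosl2* (29.5 to 37.1 FPKM) overlapped. *Fos*, *Atf3* and *Fosl2* formed a middle level near 5 to 8 FPKM, and *Fosb* and *Batf3* were close to 1 FPKM. Of the 9 genes, 7 were at or above 1 FPKM in every replicate, against 44.1% of all genes. The exceptions were *Fosb* and *Batf3*. *Fosl1* stood at rank 2218 of the 22698 genes and *Batf3* at rank 10491.

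**Figure D1:**
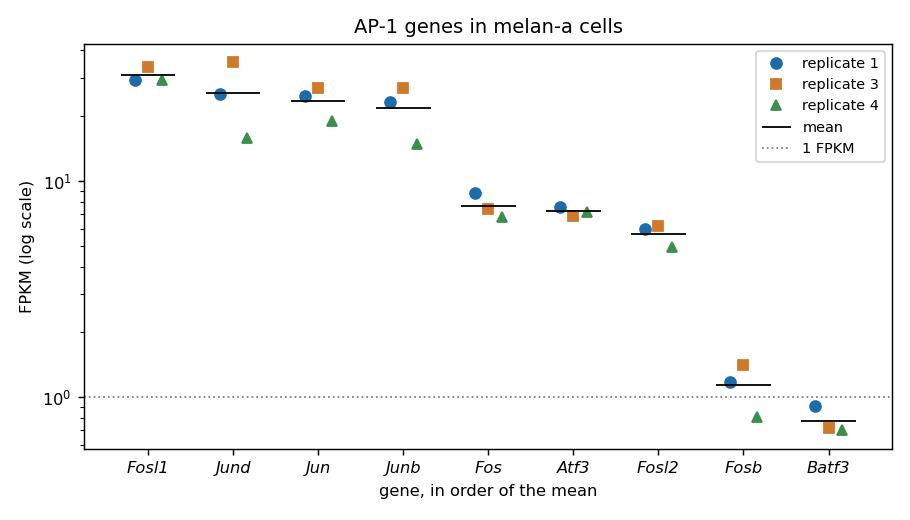
FPKM (log scale) of the 9 AP-1 genes in the 3 melan-a replicates, in order of the mean. Symbols are replicates, the bar is the mean and the dotted line is 1 FPKM. The 4 highest genes have no value below 14.74 FPKM, and no value of the other 5 exceeds 8.77 FPKM.

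Among the FOS genes, *Fosl1* was dominant. Replicates 1, 3 and 4 measured 29.32, 33.55 and 29.26 FPKM, which averages 30.7 ± 2.46 FPKM (SD, n = 3). The replicates lay close together, and the lowest of them was more than 3 times the highest value of any other FOS gene. In mm9, the build of the files, *Fosl1* spans bases 5447703 to 5455945 of chromosome 19 (plus strand), with 4 exons of 1707 bases in all, and the gene positions that follow are of the same build.

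*Fos* itself, the founding member, was at 8.77, 7.38 and 6.78 FPKM in replicates 1, 3 and 4, a mean of 7.64 ± 1.02 FPKM (SD, n = 3). *Fosl1* exceeded *Fos* 3.34, 4.55 and 4.32 times within the 3 libraries. *Fos* occupies 86814840 to 86818223 on the plus strand of chromosome 12. *Fosl2* was at 5.96, 6.19 and 4.93 FPKM, a mean of 5.69 ± 0.671 FPKM (SD, n = 3). In the deposited values its highest value was below the lowest of *Fos*, which was 1.19 to 1.47 times higher within a library. With the coding length the order reversed, with *Fosl2* at 29.5 to 37.1 FPKM and *Fos* at 14.0 to 18.1 FPKM. *Fosl2* lies on the plus strand of chromosome 5, from 32438845 to 32460204.

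*Fosb*, an activator with the same kind of transactivation domain as *Fos*, was the lowest of the FOS genes. It was at 1.17, 1.41 and 0.81 FPKM, a mean of 1.13 ± 0.302 FPKM (SD, n = 3), and *Fosl1* was 23.8 to 36.1 times higher within a library. *Fosb* lies on the minus strand of chromosome 7, from 19888070 to 19895394. Of the summed FPKM of the 4 FOS genes, *Fosl1* made up 64.8%, 69.1% and 70% in replicates 1, 3 and 4 (mean 68% ± 2.78, SD, n = 3). *Fos* accounted for 16.9% ± 2.18, *Fosl2* for 12.6% ± 0.707 and *Fosb* for 2.48% ± 0.493 on average. These shares depended on the length by which reads are divided, and with the coding length of each gene that of *Fosl1* was 54.3%. *Fosl2* then held 28.8% ± 1.26 and *Fos* 13.4% ± 1.65 (SD, n = 3), the reverse of their order in the deposited values.

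Among the JUN genes, the 3 deposited levels were close together. *Jund* was at 25.25, 35.24 and 15.72 FPKM in replicates 1, 3 and 4, a mean of 25.4 ± 9.76 FPKM (SD, n = 3). *Jun* was at 24.6, 26.94 and 18.89 FPKM in the same order, a mean of 23.5 ± 4.14 FPKM (SD, n = 3). *Junb* was at 23.19, 26.78 and 14.74 FPKM, a mean of 21.6 ± 6.18 FPKM (SD, n = 3). The ranges of the 3 genes overlapped, and each was highest in replicate 3 and lowest in replicate 4.

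*Jund* exceeded *Jun* in replicates 1 and 3 but not in replicate 4, where their ratio was 0.832. The shares of the summed JUN level were 35.3% ± 3.94 for *Jund*, 34.1% ± 4.01 for *Jun* and 30.6% ± 1.03 for *Junb* (SD, n = 3). Within a library, the highest JUN gene was only 1.09 to 1.32 times the lowest, whereas the 4 FOS genes spanned 23.8 to 36.1 times. The even split of the JUN sum depended on the gene length. With the coding length the JUN genes spanned 1.93 to 2.33 times, and the shares were 41.5% ± 4.6 for *Jun*, 38.1% ± 4.43 for *Jund* and 20.5% ± 0.804 for *Junb* (SD, n = 3). With the shortest protein-coding transcript the span was 2.01 to 2.43 times and *Junb* held 19.8% ± 0.766 (SD, n = 3). The FOS genes spanned 13.4 to 20.4 times with the coding length. All 3 are genes of a single exon. *Jun* lies on the minus strand of chromosome 4, from 94715725 to 94718913, *Junb* on the minus strand of chromosome 8, from 87500811 to 87502617, and *Jund* on the plus strand of the same chromosome, from 73221638 to 73224515.

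**Figure D2:**
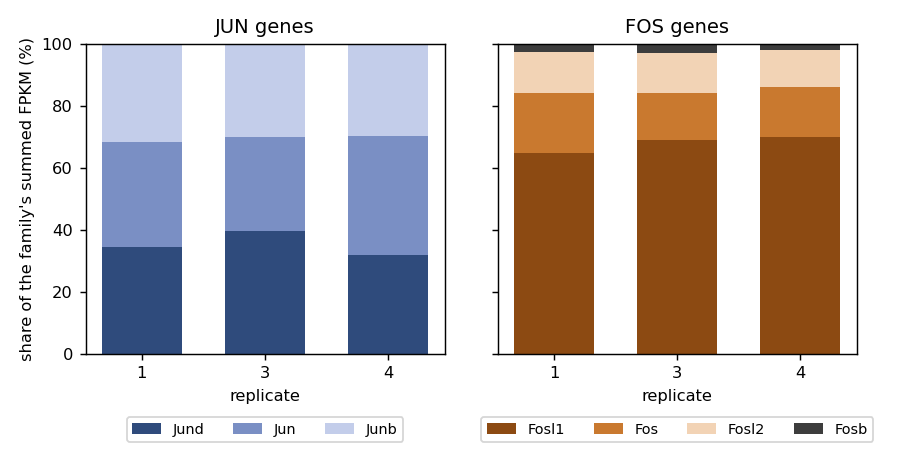
Share of each gene in the summed FPKM of the JUN genes (left) and of the FOS genes (right), in percent, for each replicate. In these deposited values the JUN genes share their sum nearly evenly, while *Fosl1* holds 64.8% to 70% of the FOS sum. With other gene lengths the share of *Junb* was near 20.5%.

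Summed over the family, JUN levels came to 73.04, 88.96 and 49.35 FPKM in replicates 1, 3 and 4. The FOS sum was steadier, at 45.22, 48.53 and 41.78 FPKM. The JUN sum was therefore 1.62, 1.83 and 1.18 times the FOS sum, higher in 3 of 3 replicates (mean 1.54 ± 0.332, SD, n = 3).

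*Atf3* had the smallest relative spread of the 9 genes before GC adjustment, at 7.57, 6.89 and 7.17 FPKM in replicates 1, 3 and 4, a mean of 7.21 ± 0.342 FPKM (SD, n = 3). It was level with *Fos*, above which it lay in replicate 4 only. It occupies 192994175 to 193007219 on the minus strand of chromosome 1. *Batf3* was the lowest, at 0.91, 0.72 and 0.7 FPKM (mean 0.777 ± 0.116 FPKM, SD, n = 3). It lies on the plus strand of the same chromosome, from 192922293 to 192932822, and its level rested on 35, 24 and 33 reads.

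Neighbours in the order of the means differed beyond their spread at 3 of 8 steps. The largest gap separated *Fosl2* from *Fosb*, by 4.39 to 6.09 times within a library. *Junb* was 2.17 to 3.63 times above *Fos*, with no overlap of the ranges. *Atf3* was 1.11 to 1.45 times above *Fosl2* in the deposited values, also without overlap. With the coding length this step reversed, with *Fosl2* at 29.5 to 37.1 FPKM and *Atf3* at 25.2 to 27.7 FPKM. At the other 5 steps the ranges of the replicates overlapped (*Fosl1* and *Jund*, *Jund* and *Jun*, *Jun* and *Junb*, *Fos* and *Atf3*, *Fosb* and *Batf3*). The top place of *Fosl1* was thus not separated from *Jund*, which was higher in replicate 3, although *Fosl1* exceeded *Jun* and *Junb* in every replicate without overlap. A two-sided exact sign-flip test over 3 libraries cannot go below p = 0.25, so no step could pass a threshold of 0.05. *Junb* against *Fos*, *Atf3* against *Fosl2* and *Fosl2* against *Fosb* reached this floor. So did *Jun* against *Junb* and *Fosb* against *Batf3*, whose ranges overlapped.

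The JUN genes varied more between replicates than most genes did. Among the 10011 genes at or above 1 FPKM in every replicate, the median coefficient of variation was 11.4%. That of *Jund* was 38.4% (above 97.9% of these genes), that of *Junb* 28.7% (above 93.8%) and that of *Jun* 17.6% (above 73.7%). *Fos* at 13.4% and *Fosl2* at 11.8% were near the median gene, and *Fosl1* at 8.01% and *Atf3* at 4.74% were below it. In all, 5 of the 7 genes that passed the level filter varied more than the median gene, a level that 50.0% of all genes exceed by construction. Counting error was at most 2.4% for any JUN gene in any replicate, with 1763 to 4767 reads behind each value. *Batf3* is the exception in this respect, since its spread of 14.9% did not exceed its counting error of 17% to 20%. Reads are estimates from the scaled library sizes, and counting error leaves out any duplicate reads.

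The differences between replicates ran with GC content. Across 10007 genes, which are not independent replicates, the log2 ratio of replicate 3 to replicate 4 had a Spearman's rho of 0.779 with the GC content of the exons. The upper quartile of genes by GC content had a median log2 ratio of 0.41 and the lower quartile -0.46. *Jund* and *Junb* are rich in GC, at 62.7% and 62.6%, and *Jun* is at 55.5%. The log2 ratio of replicate 3 to replicate 4 was 1.17 for *Jund*, where the curve over all genes at its GC content was 0.64. It was 0.86 for *Junb* against 0.64 on the curve, and 0.51 for *Jun* against 0.32. *Fosl1*, at 57.9% GC, had a ratio of 0.20 where the curve was at 0.42.

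**Figure D3:**
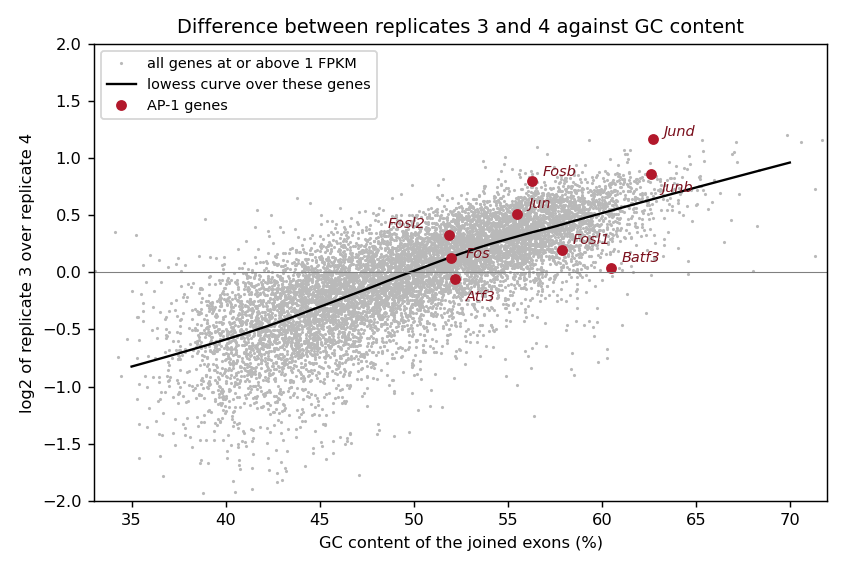
Log2 of the FPKM in replicate 3 over that in replicate 4 against the GC content of the joined exons in percent. Grey points are genes at or above 1 FPKM in every replicate, the line is a lowess curve over them, and red points are the 9 AP-1 genes. The 3 JUN genes, *Fosb* and *Fosl2* lie above the curve, *Fosl1*, *Atf3* and *Batf3* below it and *Fos* close to it, and 5 genes fall outside the frame.

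After division by the curve of each replicate, the coefficient of variation fell to 18.2% for *Jund*, 8.55% for *Junb* and 7.7% for *Jun*. The median over all genes fell too, to 7.3%, and all 7 genes that passed the level filter then varied more than the median gene, *Fosl1* (10%) and *Atf3* (7.98%) included. *Jun* and *Fosl2* (7.87%) then varied slightly less than *Atf3*. The adjusted values of *Jund* were 23.9, 29 and 20.2 FPKM in replicates 1, 3 and 4, so replicate 3 was still the highest. *Fosl1* moved the other way, to 28.6, 29.3 and 34.3 FPKM. After adjustment *Jund* exceeded *Jun* in replicate 3 alone, with ratios of 0.982, 1.2 and 0.952 in replicates 1, 3 and 4. The order of the 9 means did not change, and the ranges of *Fosl1* and *Jund* still overlapped.

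The order of the highest genes depended on the gene length. *Jun* and *Jund* each have 2 annotated transcripts, and their joined exons span 3189 and 2878 bases, whereas the shortest protein-coding transcripts have 1848 and 1559. Divided by the latter, *Jund* came to 46.9 ± 18 FPKM and *Jun* to 40.5 ± 7.15 FPKM (SD, n = 3), with means above that of *Fosl1*, whose single annotated transcript left it at 30.7 FPKM. The ranges of *Fosl1* and both JUN genes still overlapped. *Junb*, at 21.6 FPKM, lay below *Jun* and *Jund* without overlap. Both calculations take the joined exons as the length behind the deposited values, which the sources used here do not give. Divided by the coding length of each gene, *Jun* was at 74.7 ± 13.2, *Jund* at 71.5 ± 27.5 and *Fosl1* at 64 ± 5.13 FPKM (SD, n = 3), with overlapping ranges, and *Junb* at 37.8 ± 10.8 FPKM did not overlap with *Jun* or *Fosl1*. Under the coding length *Fosl2*, whose exons are mostly untranslated, stood above *Atf3* and *Fos*, to 34.1 ± 4.02 FPKM (SD, n = 3). *Fosl1* remained the highest FOS gene by every length, and *Fosb* and *Batf3* the lowest of the 9 genes.

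**Figure D4:**
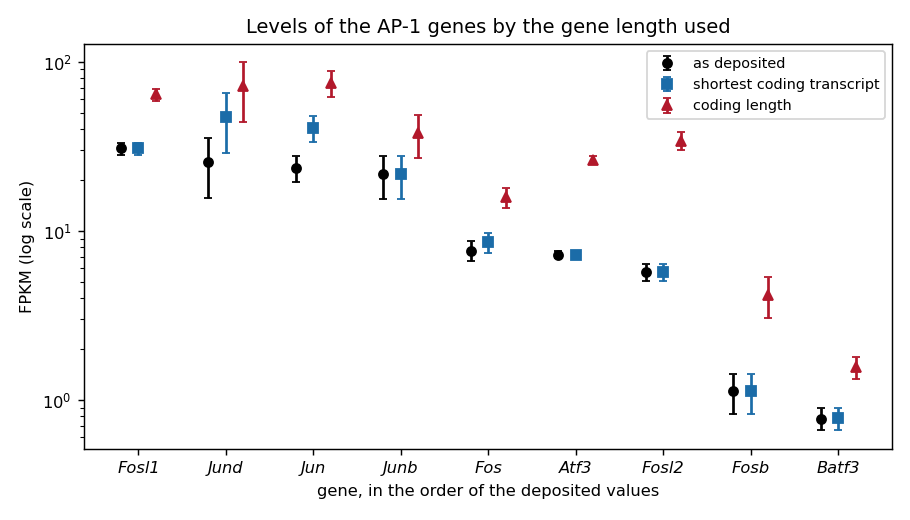
FPKM (log scale) of the 9 AP-1 genes as deposited (circles), with the length of the shortest protein-coding transcript (squares) and with the coding length (triangles). Points are means and bars the SD of 3 replicates. *Fosl1* is the highest gene only with the deposited values.

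Exons of other genes on the opposite strand overlap 3 of the 9 genes. *Ccdc85b* covers 1162 of the 1707 exon bases of *Fosl1* (68.1%) and was at 4.48, 5.78 and 3.39 FPKM in replicates 1, 3 and 4. *Gm11175* lies wholly within the exon of *Jund* and covers 18.9% of it, at 0.17, 0.08 and 0.19 FPKM. *BC042782* covers 7.28% of *Jun*. The libraries were stranded, but the strand setting of the counting is not given in the sources used here. Of 28 genes whose exon bases all lie in exons of the opposite strand, 4 had a mean of at least 1 FPKM, and the highest of these means was 14.9 FPKM. Any part of the antisense genes in the *Fosl1* value was not tested.

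Genes of the same pathway give the setting of these levels, from 6 lists. Of 14 other bZIP partners, 9 were at or above 1 FPKM in every replicate, a level that 44.1% of all genes reached. The median of the 14 partners was 5.08 FPKM, beside 7.64 FPKM for the AP-1 genes and 0.277 FPKM for all genes. Only *Nfe2l2*, the regulator of the antioxidant response, had a mean above *Fosl1*, at 117.3 ± 25.4 FPKM (SD, n = 3). *Jdp2*, a repressor that dimerizes with JUN proteins, was level with them at 28.68, 31.6 and 23.71 FPKM. *Mafg*, a small MAF protein, averaged 12.2 FPKM and *Atf7*, a relative of ATF2, 11.7 FPKM. *Batf* was at 0 in all replicates.

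The JNK and p38 modules hold the JNK and p38 kinases, which act on JUN and ATF2, and kinases upstream of these. Of their 14 genes, 12 were at or above 1 FPKM in every replicate, against 44.1% of all genes, and the median of the 14 was 7.84 FPKM. The highest were *Map2k3*, a p38 activator, at 45.2 ± 7.76 FPKM, *Map2k4* at 19.1 ± 1.94, *Mapk14* (p38 alpha) at 17.7 ± 1.24 and *Map2k7*, a JNK activator, at 17.5 ± 1.79 FPKM (SD, n = 3). *Mapk10*, the neuronal JNK, was at 0 in all replicates. The other JNK genes, which were picked out after their values were seen, averaged 14.6 FPKM for *Mapk9* and 3.3 FPKM for *Mapk8*.

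All 6 genes of the serum response factor arm, which acts on the *Fos* promoter, were at or above 1 FPKM in every replicate, against 44.1% of all genes. *Elk3* averaged 41.2 FPKM, *Srf* itself 22.2, *Mkl1* 19.7 and *Elk1* 14.7 FPKM. Of 20 other immediate-early genes, 18 were at or above 1 FPKM in every replicate, against 44.1% of all genes. The list had a median of 7.79 FPKM, close to the mean of *Fos*. The matricellular gene *Cyr61* (127.9 ± 16.6 FPKM) and *Ier3* (61.2 ± 4.76 FPKM) were higher than *Fosl1* in all replicates. *Klf6* (31 ± 3.65 FPKM) overlapped with it, and *Myc* averaged 26.5 ± 1.14 FPKM (SD, n = 3).

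The 9 regulators of JUN and FOS proteins had a median of 15.8 FPKM, and all were at or above 1 FPKM in every replicate, against 44.1% of all genes. *Ddb1*, a subunit of the CUL4 ubiquitin ligase that degrades JUN, stood at 193.5 ± 25.6 FPKM. *Men1*, whose product menin binds JUND, was at 25.2 ± 4.17 FPKM, about level with *Jund* itself. *Cops5*, the JUN-binding subunit of the COP9 signalosome, was at 23.9 ± 2.13 FPKM and *Cul4a* at 21.9 ± 0.879 FPKM (SD, n = 3). The lowest of the list, singled out after their values were seen, were *Fbxw7* at 1.91, *Rfwd2* at 3.14 and *Det1* at 4.19 FPKM on average.

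Textbook targets of AP-1 ranged widely in level, with a median of 14.8 FPKM. Of 19 targets, 11 (57.9%) were at or above 1 FPKM in every replicate, against 44.1% of all genes. Of the 19, 9 had a mean above that of *Fosl1*. The highest were *Ccnd1* (cyclin D1) at 941.2 ± 173 FPKM, *Mt1* (a metallothionein) at 310.2 ± 9.41, *Hmga1* at 211.5 ± 59.9 and *Cd44*, a hyaluronan receptor, at 128.4 ± 8.22 FPKM (SD, n = 3). *Mmp3*, the matrix metalloproteinase stromelysin, was at 0 in all replicates. The other metalloproteinases of the list, *Mmp9*, *Mmp10* and *Mmp13*, were singled out after their values were seen, and had means of at most 0.153 FPKM. *Plau*, *Il6*, *Ccl2* and *Ptgs2*, singled out in the same way, had means of at most 0.553 FPKM. The level of a target says nothing about which factor acts on it.

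**Figure D5:**
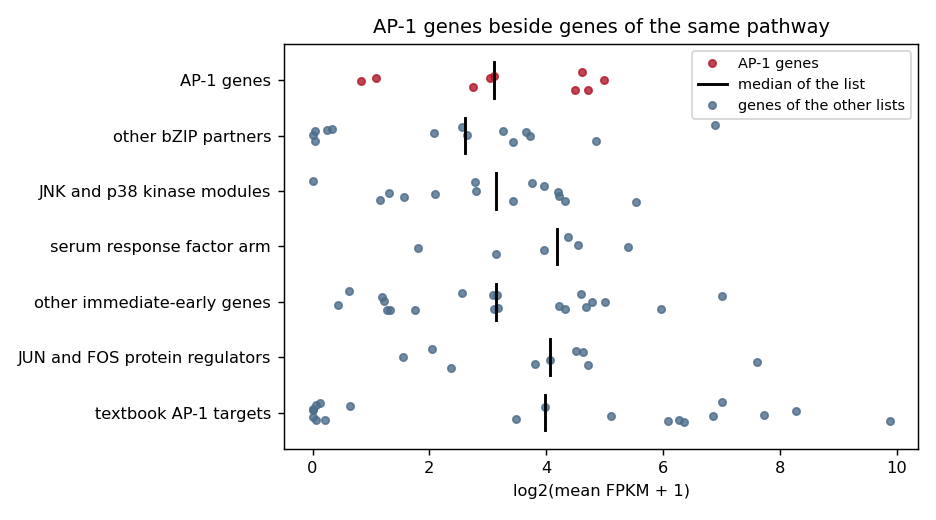
Mean level as log2(FPKM + 1) of the 9 AP-1 genes (red) and of the genes of 6 pathway lists (blue), with black bars at the medians. The AP-1 genes spread from *Batf3* to *Fosl1*, and the targets of AP-1 range from 0 FPKM to 941.2 FPKM.

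The genes nearest in level were named by the summed absolute difference in log2(FPKM + 1) over the 3 replicates. For *Fosl1* they were *Cyb5r1* (0.038), *Drosha* (0.048) and *Gnpat* (0.1). For *Jund*, whose values vary more, they were *Fam108a* (0.25), *Itpripl2* (0.29) and *Tmem160* (0.39). With 3 samples of 1 condition, this likeness is of level and says nothing of shared control.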

How the data were processed

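Stranded mRNA libraries of melan-a cells, all grown with TPA and cholera toxin, were sequenced in 3 replicates. The authors deposited FPKM values scaled by TMM with 2 decimals. Reads had lost their first 10 bases and were aligned with STAR 2.3.0e to mm9, cleared of rRNA and counted on Ensembl release 67 with HTSeq 0.5.3p3. The submitters' processing notes also list edgeR. How counts became FPKM is not given in the sources used here.

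FPKM are not counts, and with 1 condition no comparison of groups was possible. Exons, lengths and positions were read from gene models of Ensembl release 65 (mm9), where 374 genes of the tables had no match. For a symbol with several identifiers (*Atf7*), the one with the longest exons was used. Library sizes were those at which values of short genes with 1 transcript (150 to 600 bases, below 0.6 FPKM) came nearest to whole reads, from 157 to 183 genes with a mean distance of at most 0.0792 reads. GC content was adjusted with a lowess curve (fraction 0.3) of the log2 ratio to the mean of the replicates. Both steps were tested on simulated data.

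The members and lists were chosen with earlier results of these data known. The genes named are the members, the 4 highest of each list with those at 0, and the 3 nearest in level to the highest JUN and FOS gene. The alternatives were each replicate left out, rescaled values, GC adjustment, the median, other thresholds (0.5 and 5 FPKM), another measure of spread and other gene lengths. Software was numpy 2.4.6, statsmodels 0.14.6, pandas 2.3.3 and matplotlib 3.10.9 under Python 3.11.15.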

Additional observations from a re-analysis of the deposited data

How the results depend on the processing

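With each replicate left out in turn, the share of *Jund* in the JUN sum was 33.2% to 37.1%, that of *Fosl1* in the FOS sum 67% to 69.6%, and the ratio of the JUN to the FOS sum 1.4 to 1.72. The genes at or above 1 FPKM were 7 to 8 (9 with rescaled values, which lifts *Fosb* and *Batf3* over the threshold, and 9 at 0.5 FPKM and 6 at 5 FPKM), those varying more than the median gene 4 to 5, and the steps of the order without overlap 4 each time. Without replicate 3, *Jun* took the place of *Jund*. Rescaled, GC-adjusted and median values moved these 3 quantities by less than 1 SD, and after GC adjustment 7 of 7 genes varied more than the median gene. The gene length moved some of them. With the shortest protein-coding transcript, chosen after seeing the data, the share of *Jund* was 42.2% and the ratio of the sums 2.34, while the share of *Fosl1* stayed at 66.7%. The coding length left the share of *Jund* at 38.1% and the ratio at 1.54. The share of *Fosl1* was 54.3% with the coding length, also added for the shares after seeing the data, and 48.6% when values were multiplied by gene length, since *Fosl2* is long. With the coding length, 5 steps of the order were without overlap. No paired analysis was possible because the samples form 1 group. *Batf3*, with 24 to 35 reads, is the gene whose precision depth limits most.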

Other observations

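Several of these bZIP genes are neighbours on a chromosome yet differ widely in level. On chromosome 12 of mm9, *Fos*, *Jdp2* and *Batf* lie in this order on the plus strand, 122 kb and 46.8 kb apart, with 0 annotated protein-coding genes between them. *Jdp2* was at 28 ± 3.99 FPKM and *Fos* at 7.64 ± 1.02 FPKM (SD, n = 3), with no overlap of their replicates, and *Batf* was at 0 in every replicate. On chromosome 1, *Batf3* and *Atf3* lie 61.4 kb apart with their 3′ ends facing each other and 1 protein-coding gene between them. *Atf3* was the higher in 3 of 3 replicates, at 7.21 ± 0.342 against 0.777 ± 0.116 FPKM (SD, n = 3).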
